A study of Homo sapiens with 9 samples.

Results

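The genes described here are 9 members of the MHC class I pathway: the heavy chains HLA-B, HLA-C and HLA-E, the light chain B2M, the peptide transporter subunits TAP1 and TAP2, the loading factor TAPBP, and the immunoproteasome subunits PSMB8 and PSMB9. They were chosen by name from knowledge of the pathway, and all 9 had a row among the 17911 genes of the table. Their RNA was sequenced from bulk cultures of MDA-MB-231 by the labels; that line was established from a human breast tumour without hormone receptors or ERBB2 amplification.

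The labels describe 9 samples, all marked WT: 3 small spheroids and 3 large spheroids grown by liquid overlay, and 3 capsules. All 9 carry the same culture and treatment text, capsules included: RPMI medium with fetal bovine serum, and 96 h of culture with 5% Matrigel after trastuzumab, which binds ERBB2. The labels name no separate culture for each replicate, so a p-value here measures the spread between these libraries, which may be technical. The 3 capsule columns each matched 1 sample by name. The other 6 columns fall into sets of 3 whose headers read L.O and Sph.WT. These headers give no size, so both sets are called spheroids and neither is called small or large. The capsule and L.O headers begin with MDA. The Sph.WT headers name no cell line, so the line is given for that set by the sample labels only.

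MHC class I molecules show peptides from inside the cell to cytotoxic T cells and natural killer cells. The proteasome cuts proteins into peptides, TAP1 and TAP2 carry them into the endoplasmic reticulum, and tapasin (TAPBP) holds the empty heavy chain with B2M near the transporter until a peptide binds. In most cells interferon raises these genes together and exchanges constitutive proteasome subunits for PSMB8, PSMB9 and PSMB10, and many tumours lower the pathway.

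Depth was 13212665 to 13735221 counts in the capsule libraries, 15525725 to 15988167 in the L.O libraries and 16605098 to 33263076 in the Sph.WT libraries. Across 17146 genes, Pearson's r of log2(CPM + 0.5), with CPM the counts scaled to a library total of 1000000, was 0.993 to 0.996 within a set. It was 0.977 to 0.985 between capsule and L.O libraries, and 0.724 to 0.749 between Sph.WT and the other 6. The Sph.WT libraries thus stand apart from both other sets, and their column headers also follow another naming pattern, so the set and the way of naming cannot be told apart. Mitochondrial genes took 6.84% to 7.13% of counts in Sph.WT and 3.18% to 4.23% in the other libraries.

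The cell line label was checked against defining genes. CDKN2A, a gene deleted in MDA-MB-231, was at 554, 543 and 473 CPM in the capsule libraries, 475, 498 and 697 CPM in the L.O libraries and 0.855, 0.631 and 0.662 CPM in the Sph.WT libraries. The summed level of 16 MDA-MB-231 markers was 923 to 950.3 CPM in the capsule, 1138 to 1237 CPM in the L.O and 8179 to 9309 CPM in the Sph.WT libraries. For 9 measured markers of HEK293 cells and embryonic kidney (of 10 listed) the sums were 2349 to 2528, 2409 to 2601 and 65.4 to 78.8 CPM. The libraries with capsule and L.O headers therefore go against the cell line label, and only the Sph.WT libraries have the pattern of MDA-MB-231. Every difference given below between Sph.WT and the other libraries is a difference between libraries that also differ in these markers, and the part of the markers in it was not tested. Summed epithelial markers (7 of 7 measured) were 209 to 215 CPM in capsule, 294 to 325 in L.O and 1279 to 1342 in Sph.WT libraries, and summed fibroblast markers (7 of 8 measured) 43.0 to 47.5, 89.3 to 102 and 167 to 199 CPM. COL1A2 averaged 0.471 CPM in capsule, 0.359 in L.O and 148 in Sph.WT libraries, where it made up most of the fibroblast sum. COL1A1, another of these fibroblast markers, was lowest in Sph.WT, at 38.9, 86.3 and 13.2 CPM. The part of the epithelial and fibroblast markers, and that of the mitochondrial share, was not tested either.

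The loci lie on chromosome 6 in the MHC region, except B2M on chromosome 15. TAP2, PSMB8, TAP1 and PSMB9 stand close together, with the starts of TAP1 and PSMB9 488 bp apart on opposite strands. The promoter windows below, from 250 bases before to 50 after the start, are RefSeq sequence of GRCh38.p14. They are shown because 8 of the 9 genes moved in 1 direction between the spheroid sets while HLA-C moved in the other. Capitals mark letters of the form GAANNGAAA or GAAANNGAA on either strand, which resemble sites of interferon regulatory factors.
HLA-B (chr6:31357130-31357429, minus strand): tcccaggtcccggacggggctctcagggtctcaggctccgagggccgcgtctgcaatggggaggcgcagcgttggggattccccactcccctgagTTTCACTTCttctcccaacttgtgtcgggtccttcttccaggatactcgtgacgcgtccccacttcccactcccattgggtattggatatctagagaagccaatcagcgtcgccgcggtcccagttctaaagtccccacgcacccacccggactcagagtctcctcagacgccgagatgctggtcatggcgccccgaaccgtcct
HLA-C (chr6:31272043-31272342, minus strand): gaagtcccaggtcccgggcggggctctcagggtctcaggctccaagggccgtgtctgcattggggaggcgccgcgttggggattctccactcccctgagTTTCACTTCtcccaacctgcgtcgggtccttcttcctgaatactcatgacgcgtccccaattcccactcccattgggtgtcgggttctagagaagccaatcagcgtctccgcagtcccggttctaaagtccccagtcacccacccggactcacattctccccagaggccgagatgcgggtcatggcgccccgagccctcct
B2M (chr15:44711267-44711566, plus strand): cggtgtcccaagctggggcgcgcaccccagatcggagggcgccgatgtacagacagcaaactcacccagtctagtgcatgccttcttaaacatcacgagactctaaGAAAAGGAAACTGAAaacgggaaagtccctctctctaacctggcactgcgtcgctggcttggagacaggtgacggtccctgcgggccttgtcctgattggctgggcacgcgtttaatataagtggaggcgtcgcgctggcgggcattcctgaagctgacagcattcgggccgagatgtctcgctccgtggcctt
TAP1 (chr6:32853655-32853954, minus strand): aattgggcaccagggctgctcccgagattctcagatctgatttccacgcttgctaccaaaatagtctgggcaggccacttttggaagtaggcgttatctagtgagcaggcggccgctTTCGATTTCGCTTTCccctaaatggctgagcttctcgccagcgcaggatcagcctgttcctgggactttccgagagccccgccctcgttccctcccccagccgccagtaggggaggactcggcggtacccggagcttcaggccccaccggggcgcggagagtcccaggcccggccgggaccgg
TAPBP (chr6:33314029-33314328, minus strand): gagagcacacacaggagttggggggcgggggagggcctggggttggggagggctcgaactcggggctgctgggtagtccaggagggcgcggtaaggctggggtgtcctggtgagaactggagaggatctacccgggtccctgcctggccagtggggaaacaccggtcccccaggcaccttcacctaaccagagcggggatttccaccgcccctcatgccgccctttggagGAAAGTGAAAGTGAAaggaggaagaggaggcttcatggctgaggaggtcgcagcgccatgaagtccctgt
PSMB9 (chr6:32853942-32854241, plus strand): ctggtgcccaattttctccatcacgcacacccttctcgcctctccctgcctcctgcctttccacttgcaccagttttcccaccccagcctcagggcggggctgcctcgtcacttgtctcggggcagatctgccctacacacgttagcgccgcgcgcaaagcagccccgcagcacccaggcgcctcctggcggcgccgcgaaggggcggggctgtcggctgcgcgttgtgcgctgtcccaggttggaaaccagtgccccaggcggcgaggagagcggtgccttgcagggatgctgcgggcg

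RefSeq windows were found for 8 of the 9 genes, 10 windows in all since PSMB8 and TAP1 have more than 1 start. The first search, GAANNGAAA alone, matched 4 of these 8 genes and 7.66% of 35116 windows of the genome's genes. GAAANNGAA was added after the sequences and that result had been seen. Either form matched 7 of the 8, all but PSMB9, and 14.5% of all windows. The PSMB9 window does not reach the letters marked for TAP1, which lie between the starts of TAP1 and PSMB9. Gene counts here take a match in any window of a gene, while the shares count single windows. PSMB8 and TAP1 each matched in only 1 of their 2 windows. On both strands, an NF-kB consensus matched 5 of the 8 (5.91% of all windows), TGACG 6 (24.6%), CCAAT 5 (34.6%) and TTCNNNGAA 2 (7.66%). The windows of HLA-B and HLA-C were 88.5% identical, with 27 mismatches and 8 gap positions, and both hold the same marked letters TTTCACTTC. These matches describe the letters only.

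In the heavy chains, the Sph.WT libraries had more HLA-B and HLA-E and less HLA-C than the other 6. HLA-B and HLA-C are classical heavy chains that present peptides to T cells, and HLA-C is also a main ligand of killer cell receptors. HLA-B was at 118, 127 and 108 CPM in the capsule libraries, 167, 160.4 and 190.2 CPM in the L.O libraries and 665, 419.9 and 509 CPM in the Sph.WT libraries. HLA-C was at 197, 207 and 184 CPM in the capsule libraries, 237, 232 and 266 CPM in the L.O libraries and 66.4, 46.4 and 55.3 CPM in the Sph.WT libraries. The place of the Sph.WT libraries thus differed between these neighbours: every Sph.WT library was the highest for HLA-B and the lowest for HLA-C. HLA-E, which shows leader peptides of other class I chains to the NKG2A receptor, was at 16.0, 14.7 and 12.4 CPM in the capsule libraries, 17.7, 18.0 and 17.9 CPM in the L.O libraries and 123, 99.4 and 109 CPM in the Sph.WT libraries. In CPM the capsule and L.O libraries did not overlap for any of the 3 heavy chains, with capsules lower. With TMM scaling they still did not overlap for HLA-B, and they overlapped for HLA-C and HLA-E. The share of all genes without overlap was not computed. By library totals, 36.8% of all genes were called lower in capsules than in L.O and 14.3% higher. HLA genes are near-identical in parts and highly polymorphic, so counting against 1 reference genome could move reads between them, and this was not tested.

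B2M, the light chain that every class I molecule needs to reach the cell surface, was at 95.1, 84.6 and 88.9 CPM in the capsule libraries, 95.3, 88.9 and 109 CPM in the L.O libraries and 1137, 1035 and 1183 CPM in the Sph.WT libraries. Its capsule and L.O libraries overlapped, and all 3 Sph.WT libraries were far above both. In bulk samples a lower level can come from fewer cells of a type or from less RNA per cell, and the 2 cannot be told apart.

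The transporter and loading genes were also highest in the Sph.WT libraries. TAP1 was at 2.72, 2.84 and 2.79 CPM in the capsule libraries, 3.78, 3.63 and 4.12 CPM in the L.O libraries and 25.5, 23.03 and 23.7 CPM in the Sph.WT libraries. TAP2 was at 5.83, 5.68 and 6.10 CPM in the capsule libraries, 5.89, 5.69 and 7.02 CPM in the L.O libraries and 16.4, 14.6 and 15.1 CPM in the Sph.WT libraries. The capsule and L.O libraries overlapped for TAP2 and not for TAP1. TAPBP was at 4.31, 5.17 and 4.05 CPM in the capsule libraries, 8.70, 8.63 and 8.82 CPM in the L.O libraries and 144, 131 and 119 CPM in the Sph.WT libraries. Among the genes with enough counts to be tested in all comparisons, TAPBP had the widest ratio of mean CPM, 29.1 for Sph.WT over capsules and 1.93 for L.O over capsules. TAP1 and PSMB8 overlap the antisense gene PSMB8-AS1, TAPBP overlaps RGL2, and HLA-B and B2M each overlap a microRNA gene. The strand setting of the counting is not given in the sources used here, so reads of these pairs cannot be told apart.

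PSMB8 and PSMB9, the subunits that replace PSMB5 and PSMB6 in the immunoproteasome, were close to undetected outside the Sph.WT libraries. PSMB8 had 0, 1 and 0 counts in the capsule libraries, 1, 3 and 1 in the L.O libraries and 331, 440 and 275 in the Sph.WT libraries. PSMB9 had 8, 1 and 3 counts in the capsule libraries, 5, 5 and 8 in the L.O libraries and 248, 270 and 169 in the Sph.WT libraries. A count of 0 allows up to 3 counts, or 0.221 and 0.227 CPM in these capsule libraries. Summed over 3 libraries a set, PSMB8 was 608-fold higher in Sph.WT than in capsules (95% exact interval 109 to 24041) and 141-fold higher than in L.O (60.4 to 436). For PSMB9 these ratios were 33.3 (18.9 to 64.7) and 25.8 (16.2 to 43.8). Intervals and limits cover counting error only.

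**Figure D1:**
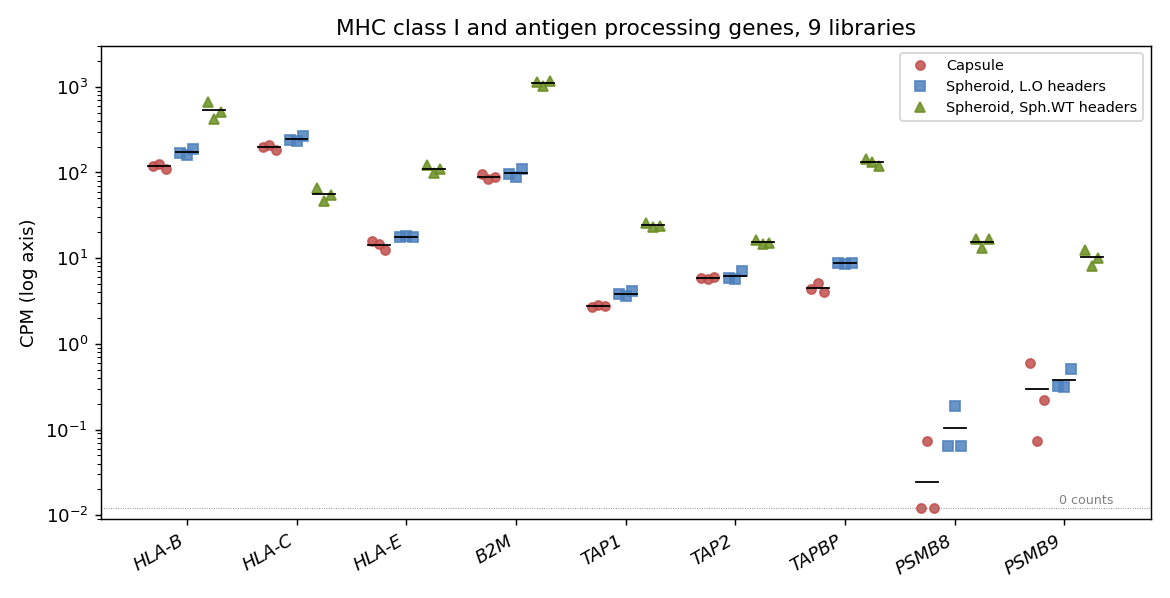
CPM of the 9 genes on a log axis in 3 capsule, 3 L.O and 3 Sph.WT libraries (points) with the mean of each set (bars); the dotted line marks 0 counts. Sph.WT points are the highest for 8 genes and the lowest for HLA-C. In CPM by library totals, capsule points lie below all L.O points for HLA-B, HLA-C, HLA-E, TAP1 and TAPBP and overlap them for the others. With TMM scaling, only HLA-B, TAP1 and TAPBP do not overlap. The share of all genes without overlap was not computed.

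The planned comparison set the 3 capsule libraries against all 6 spheroid libraries, the contrast the series title names. With edgeR's quasi-likelihood test and Benjamini-Hochberg adjustment, 2.30% of 16985 genes were called higher in capsules and 1.47% lower, and none of the 9 genes was called (adjusted p 0.126 to 0.593). Of the 9, 7 had an unadjusted p under 0.05, as did 4929 of all genes tested, and DESeq2 called 7 of the 9 lower beside 16.5% of all genes lower and 7.15% higher. The fitted difference was -4.24 ± 1.44 for TAPBP, -3.04 ± 1.24 for B2M and 0.44 ± 0.49 for HLA-C (log2 fold change ± SE). The median of the 9 was -2.58 beside -0.06 over all genes tested. A fit with 3 levels, capsules against the mean of both sets, called 8 lower and HLA-C higher, and also called 35.6% of all genes lower and 38.9% higher. With any 1 capsule library left out, no gene of the table was called.

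Capsules were therefore also set against the L.O libraries alone, the set nearest to them; this had been listed as an alternative and was made a comparison of its own after values were seen. HLA-B and TAPBP were lower in capsules and the other 5 tested genes were not called. Across 15919 genes, 24.7% were called higher in capsules and 25.4% lower, so 2 of 7 lower is near the share among all genes. HLA-B fell by 0.40 ± 0.08 on the log2 scale (adjusted p = 0.000417, lower in 3 of 3 capsules than in every L.O library). TAPBP fell by 0.80 ± 0.15 (adjusted p = 0.00022, also without overlap). The fit gave -0.17 ± 0.07 (adjusted p = 0.061) for HLA-C, -0.17 ± 0.11 (adjusted p = 0.221) for HLA-E and -0.32 ± 0.19 (adjusted p = 0.184) for TAP1. B2M was at 0.02 ± 0.08 (adjusted p = 0.866) and TAP2 at 0.07 ± 0.15 (adjusted p = 0.734). PSMB8 and PSMB9 had too few counts to be tested. HLA-C was called without capsule replicate 2 (-0.22, adjusted p = 0.0473). Scaling by library totals moved the median of all genes to -0.16 and also called HLA-C (-0.32) and HLA-E (-0.32), with 36.8% of all genes called lower and 14.3% higher.

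Between the spheroid sets, 8 of the 9 genes were lower in L.O than in Sph.WT and HLA-C was higher, all past the threshold in edgeR's quasi-likelihood test. This stands beside 43.1% of 16985 genes called lower and 42.4% called higher, so a call by itself is common between these sets. The median of the 9 was -3.11 (log2), beside -0.01 over all genes tested. The fitted log2 difference was -3.98 ± 0.09 (adjusted p = 2.27e-21) for B2M, -2.08 ± 0.11 (adjusted p = 4.83e-14) for HLA-B and -3.08 ± 0.10 (adjusted p = 1.61e-18) for HLA-E. HLA-C was at 1.67 ± 0.10 (adjusted p = 1.3e-13), higher in 3 of 3 L.O libraries. TAP1 was at -3.11 ± 0.12, TAP2 at -1.77 ± 0.13 and TAPBP at -4.37 ± 0.10, with adjusted p from 6.78e-21 to 6.48e-12. PSMB8 (-7.53 ± 0.28) and PSMB9 (-5.17 ± 0.29) had the lowest fitted values, which at such low counts depend on the fit's prior count. Under 13 other settings each gene kept its direction and its call. Scaling by library totals moved the median of all genes to 0.45 and the calls over all genes to 9349 higher (55.0%) and 5287 lower (31.1%), and left the 9 genes at 8 lower and 1 higher.

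Set against Sph.WT, capsules also had 8 of the 9 genes called lower, beside 42.9% of 16157 genes, and HLA-C higher, beside 43.2%, with B2M at -3.92 ± 0.08, TAPBP at -5.14 ± 0.12 and HLA-C at 1.54 ± 0.10 (log2, capsules minus Sph.WT). This comparison shares libraries with the other comparisons and adds no independent evidence.

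**Figure D2:**
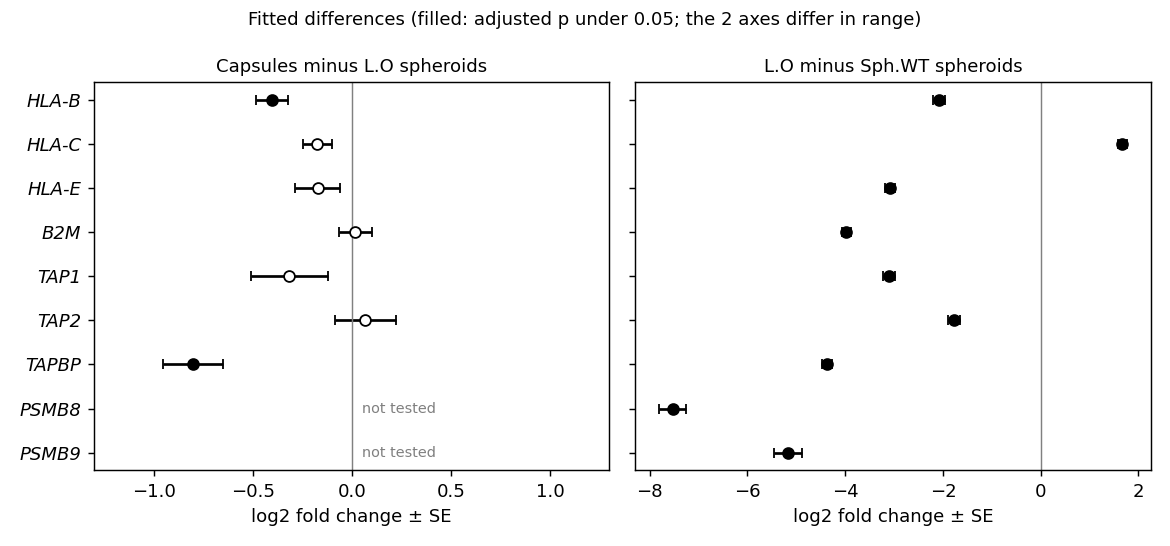
Fitted log2 fold change with its SE for each gene, capsules minus L.O on the left and L.O minus Sph.WT on the right (the axes differ in range); filled points have an adjusted p under 0.05. HLA-B (-0.40) and TAPBP (-0.80) are filled on the left, and on the right all 9 are filled with HLA-C alone above 0.

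Levels of different genes were compared per kilobase of joined exons (GENCODE 29). In capsules the order was HLA-C (78.2 ± 4.58 CPM per kb), HLA-B (38.6 ± 3.09), B2M (14.7 ± 0.871) and HLA-E (4.82 ± 0.616). TAP2 (0.919) and TAPBP (0.892) followed and did not differ beyond their spread, then came TAP1 (0.580), PSMB9 (0.0975) and PSMB8 (0.00810), the last 2 overlapping. The L.O libraries had the same first 4, led by HLA-C at 97.6 ± 7.25 CPM per kb, and no neighbours overlapped. In Sph.WT libraries B2M (184 ± 12.5) and HLA-B (174 ± 40.6) came first and overlapped, followed by HLA-E (37.1 ± 3.99), TAPBP (25.9 ± 2.47) and HLA-C (22.4 ± 3.98), of which the last 2 overlapped. Taking the length of the longest transcript instead exchanged only neighbouring ranks, TAP2 with TAPBP in capsules, TAP2 with TAP1 in L.O and PSMB8 with TAP1 in Sph.WT. The levels themselves moved by their SD or more in 22 of 27 cases.

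As a share of the 3 heavy chains' CPM per kb, HLA-C made up 64.3% ± 0.526 in capsules, 61.0% ± 0.237 in L.O and 9.61% ± 0.295 in Sph.WT libraries (SD, n = 3). HLA-B made up 31.7% ± 0.492, 35.3% ± 0.50 and 74.3% ± 1.85. HLA-E made up 3.96% ± 0.373, 3.77% ± 0.284 and 16.1% ± 1.58. The ratio of HLA-C to HLA-B per kb was 1.98 to 2.07 in capsules, 1.70 to 1.76 in L.O and 0.122 to 0.135 in Sph.WT, with no overlap between sets. TAP1 stood to TAP2 at 0.632 ± 0.0294 in capsules, 0.827 ± 0.0401 in L.O and 2.09 ± 0.0184 in Sph.WT libraries, though both are needed for 1 transporter. These ratios do not depend on library scaling, but they depend on the gene length used. With the longest transcript, HLA-C to HLA-B averaged 1.37 in capsules, 1.17 in L.O and 0.0875 in Sph.WT. TAP1 to TAP2 then averaged 0.913, 1.19 and 3.01, so TAP1 passed TAP2 in L.O. The shares of the 3 heavy chains were not computed with that length.

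**Figure D3:**
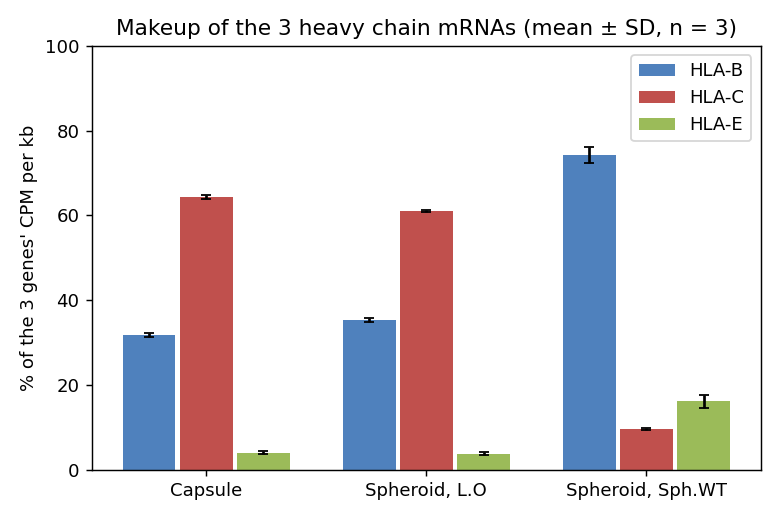
Share of HLA-B, HLA-C and HLA-E in the sum of their CPM per kb in each set (bars, mean; error bars, SD; n = 3). HLA-C is the tallest bar in capsules (64.3%) and L.O (61.0%), and HLA-B in Sph.WT (74.3%).

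The proteasome's constitutive subunits differed less between sets than PSMB8 and PSMB9. Of the constitutive catalytic subunits, PSMB5 averaged 188 ± 11.7 CPM in the capsule, 157 ± 5.35 CPM in the L.O and 109 ± 7.01 CPM in the Sph.WT libraries (SD, n = 3, as for every mean given below). PSMB6 averaged 121 ± 7.67 CPM in the capsule, 116 ± 13.5 CPM in the L.O and 79.1 ± 9.85 CPM in the Sph.WT libraries, and PSMB7 198 ± 6.36 CPM in the capsule, 179.5 ± 19.4 CPM in the L.O and 114 ± 7.14 CPM in the Sph.WT libraries. As a share of the pair per kb, PSMB8 was 0.00721% of PSMB8 and PSMB5 in capsules, 0.0401% in L.O and 7.68% ± 0.647 in Sph.WT. PSMB9 was 0.116%, 0.153% and 5.72% ± 0.484 of PSMB9 and PSMB6. PSMB10, the third inducible subunit, was 11.0% ± 0.419, 9.22% ± 1.15 and 19.3% ± 0.679 of PSMB10 and PSMB7, so it was present in all sets. Between L.O and Sph.WT, 1 of the 3 constitutive subunits was called higher, PSMB7 (0.19 ± 0.08, adjusted p = 0.0323), beside 42.4% of all genes. PSMB7 was not called without L.O 3, Sph.WT 2 or Sph.WT 3, or with the replicate block. Library totals called all 3 higher, beside 55.0% of all genes. Capsules had 2 of the 3 higher than L.O, beside 24.7% of all genes. These were PSMB5 (0.41 ± 0.07, adjusted p = 0.00011) and PSMB7 (0.29 ± 0.08, adjusted p = 0.00497), with PSMB6 at 0.20 ± 0.08 (adjusted p = 0.0522). The count was 1 without L.O 2 and 1 under library totals, both without PSMB7, and 3 without capsule replicate 3, without L.O 3, with DESeq2 size factors, with limma-voom or with no filter. Library totals called 14.3% of all genes higher in this comparison.

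Of 5 further immunoproteasome and activator genes, 4 were lower in L.O than in Sph.WT and none higher, beside 43.1% and 42.4% of all genes. PSME1, a subunit of the interferon-inducible proteasome cap, averaged 44.8 ± 5.42 CPM in the capsule, 53.1 ± 2.92 CPM in the L.O and 122 ± 7.40 CPM in the Sph.WT libraries (log2 -1.66 ± 0.08, adjusted p = 8.62e-15). PSMB10 was at -1.06 ± 0.10, the assembly chaperone POMP at -0.56 ± 0.09, PSME2 at -0.54 ± 0.09 and PSME3, of another cap, at -0.06 ± 0.07 (adjusted p = 0.375). Library totals left 2 of these lower, PSMB10 and PSME1, and called PSME3 higher, beside 31.1% of all genes lower and 55.0% higher. In capsules against L.O, 3 of the 5 were higher and none lower, beside 24.7% and 25.4% of all genes. The 3 were PSMB10 (0.59 ± 0.10, adjusted p = 8.19e-05), POMP (0.42 ± 0.09, adjusted p = 0.000544) and PSME3 (0.29 ± 0.07, adjusted p = 0.00122). Library totals did not call PSME3 and called PSME1 and PSME2 lower, beside 36.8% of all genes lower and 14.3% higher.

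All 9 peptide loading and trimming genes were lower in L.O than in Sph.WT, beside 43.1% of all genes. They were lower under library totals as well, beside 31.1% of all genes. ERAP1, which trims peptides in the endoplasmic reticulum, was at 10.7, 9.76 and 9.78 CPM in the capsule libraries, 10.6, 11.7 and 9.53 CPM in the L.O libraries and 109.7, 117 and 117 CPM in the Sph.WT libraries (log2 -3.89 ± 0.09, adjusted p = 1.14e-20). TAPBPL, a relative of tapasin that edits peptides, was at -2.13 ± 0.17 and ERAP2 at -1.53 ± 0.13. Among the chaperones of wider use, CALR was at -1.10 ± 0.07, CANX at -1.53 ± 0.08, PDIA3 at -1.02 ± 0.07, HSPA5 at -0.90 ± 0.07 and ERP29 at -0.86 ± 0.07, and the protease SPPL3 was at -0.86 ± 0.08. In capsules against L.O the list split into 4 higher and 1 lower of 9, beside 24.7% and 25.4% of all genes. CANX (0.53 ± 0.08, adjusted p = 2.75e-05), PDIA3 (0.31 ± 0.07, adjusted p = 0.000697), HSPA5 (0.50 ± 0.07, adjusted p = 5.72e-06) and ERP29 (0.36 ± 0.07, adjusted p = 0.00024) were higher and TAPBPL (-0.66 ± 0.25, adjusted p = 0.0322) was lower. TAPBPL was not called without capsule replicate 1 or 2, without L.O 2 or L.O 3, or by DESeq2. CALR (-0.03 ± 0.07), ERAP1 (0.07 ± 0.13), ERAP2 (-0.24 ± 0.16) and SPPL3 (0.08 ± 0.08) were not called. Library totals called CALR lower (-0.17) and turned the sign of ERAP1 and SPPL3.

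Of 20 regulators of class I genes, 16 were lower and 3 higher in L.O than in Sph.WT, beside 43.1% and 42.4% of all genes. Library totals gave 12 and 6, beside 31.1% and 55.0% of all genes. STAT3, a signal transducer of cytokine receptors, averaged 82.5 ± 3.58 CPM in the capsule, 129 ± 8.61 CPM in the L.O and 224 ± 6.91 CPM in the Sph.WT libraries (log2 -1.26 ± 0.07, adjusted p = 1.44e-13). RELA, a subunit of NF-kB, was at -0.58 ± 0.09 (adjusted p = 1.53e-06), a call that library totals did not make. RFX5, which binds the promoters of MHC genes, was higher in L.O, at 0.27 ± 0.07 (adjusted p = 0.00141). NLRC5, the transactivator of class I genes, was picked after values were seen: it was at 3.63, 6.55 and 5.59 CPM in the capsule libraries, 5.57, 7.07 and 7.54 CPM in the L.O libraries and 84.0, 88.8 and 79.0 CPM in the Sph.WT libraries. IRF1, a factor that carries the interferon signal to these promoters, was picked likewise. IRF1 averaged 10.7 ± 1.17 CPM in the capsule, 15.8 ± 1.29 CPM in the L.O and 50.1 ± 3.18 CPM in the Sph.WT libraries (log2 -2.13 ± 0.10, adjusted p = 3.33e-15). In capsules against L.O, 8 regulators were higher and 6 lower, beside 24.7% and 25.4% of all genes. Under library totals they were 2 and 7, beside 14.3% and 36.8%. Without capsule replicate 1 the counts were 5 and 4, and without L.O 2 they were 5 and 5. STAT3 (-0.50 ± 0.07, adjusted p = 1.63e-05) and RELA (-0.25 ± 0.08, adjusted p = 0.0154) were lower, RFX5 (0.19 ± 0.07, adjusted p = 0.0273) was higher, and NLRC5 (-0.20 ± 0.19, adjusted p = 0.387) was not called. The call of RFX5 was lost under library totals.

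Of 11 interferon receptor and JAK-STAT genes, 9 were lower in L.O than in Sph.WT and none higher, beside 43.1% and 42.4% of all genes. These counts were 8 and 2 under library totals, beside 31.1% and 55.0%. The list also holds inhibitors of JAK signalling, such as SOCS3 (-2.84), which was among the 9 lower. The counts therefore do not cover activating parts alone. IFNAR1, a chain of the type I interferon receptor, was at -1.27 ± 0.08 (adjusted p = 4.33e-13) and the kinase JAK1 at -0.99 ± 0.08 (adjusted p = 1.14e-10), while TYK2 (0.06 ± 0.07, adjusted p = 0.428) was not called except under library totals (0.52). In capsules against L.O, 2 were higher and 2 lower, beside 24.7% and 25.4% of all genes. None of IFNAR1, JAK1 and TYK2 was called, though library totals called JAK1 (-0.19) and TYK2 (-0.28) lower. No interferon was named in the treatment text.

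Of 14 other class I and class I-like genes with a row, 8 were lower and 4 higher in L.O than in Sph.WT. Of all genes, 43.1% were lower and 42.4% higher. Under library totals 7 were lower and 5 higher, beside 31.1% and 55.0% of all genes. FCGRT, the neonatal Fc receptor chain that also pairs with B2M, was at -1.23 ± 0.11 (adjusted p = 6.57e-10). PROCR, a class I-like receptor of protein C that does not need B2M, was higher in L.O, at 1.16 ± 0.09 (adjusted p = 4.16e-11). In capsules against L.O, 7 of 13 tested were lower and none higher, beside 25.4% and 24.7% of all genes. FCGRT was among the 7 (-0.59 ± 0.11, adjusted p = 0.000206), and PROCR was at -0.01 ± 0.08 (adjusted p = 0.95).

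Genes of MHC class II, which presents peptides from outside the cell, had 7 lower and 4 higher of 11 in L.O than in Sph.WT. The shares over all genes were 43.1% lower and 42.4% higher. With library totals 6 were lower and 4 higher, beside 31.1% and 55.0% of all genes. CD74, the invariant chain, was at 0.833, 0.728 and 0.883 CPM in the capsule libraries, 1.47, 1.501 and 1.55 CPM in the L.O libraries and 1236, 1051 and 1149 CPM in the Sph.WT libraries. CIITA, the class II transactivator, averaged 0.518 ± 0.125 CPM in the capsule, 0.784 ± 0.149 CPM in the L.O and 29.04 ± 1.82 CPM in the Sph.WT libraries. HLA-DQB1 went the other way, at 16.5, 17.9 and 14.5 CPM in the capsule libraries, 26.9, 25.0 and 26.5 CPM in the L.O libraries and 0.151, 0 and 0 CPM in the Sph.WT libraries. Among immune cell markers, 8 of 13 have no row in the table, PTPRC, CD3E and LYZ among them. The summed level of the 5 others was 15.9 to 17.3 CPM in capsule, 39.0 to 42.2 in L.O and 131 to 147 in Sph.WT libraries, with CD14 at 45.4, 51.3 and 40.5 CPM and CD68 at 101, 80.0 and 89.8 CPM in the last, and their part in the result was not tested. Of 7 class II genes tested in capsules against L.O, 6 were lower and none higher, beside 25.4% and 24.7% of all genes. CD74 was at -0.74 ± 0.31 (adjusted p = 0.0537). Library totals called CD74 lower (-0.88).

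Of 10 genes for turnover of class I chains, 6 were lower and 2 higher in L.O than in Sph.WT. Among all genes 43.1% were lower and 42.4% higher. The counts under library totals were 6 and 4, beside 31.1% and 55.0% of all genes. TRAM1, of the translocon, was at -1.38 ± 0.07 (adjusted p = 8.33e-15), the signal peptide peptidase HM13 at -1.10 ± 0.07 (adjusted p = 4.74e-13) and the ubiquitin ligase SYVN1 at -0.85 ± 0.08 (adjusted p = 2.62e-09). In capsules against L.O, 4 of 9 were higher and 5 lower, beside 24.7% and 25.4% of all genes. TRAM1 (0.56 ± 0.07, adjusted p = 2e-06) and HM13 (0.37 ± 0.07, adjusted p = 0.000124) were higher and SYVN1 (-0.24 ± 0.08, adjusted p = 0.0224) was lower. Without capsule replicate 3 the counts were 3 and 3.

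**Figure D4:**
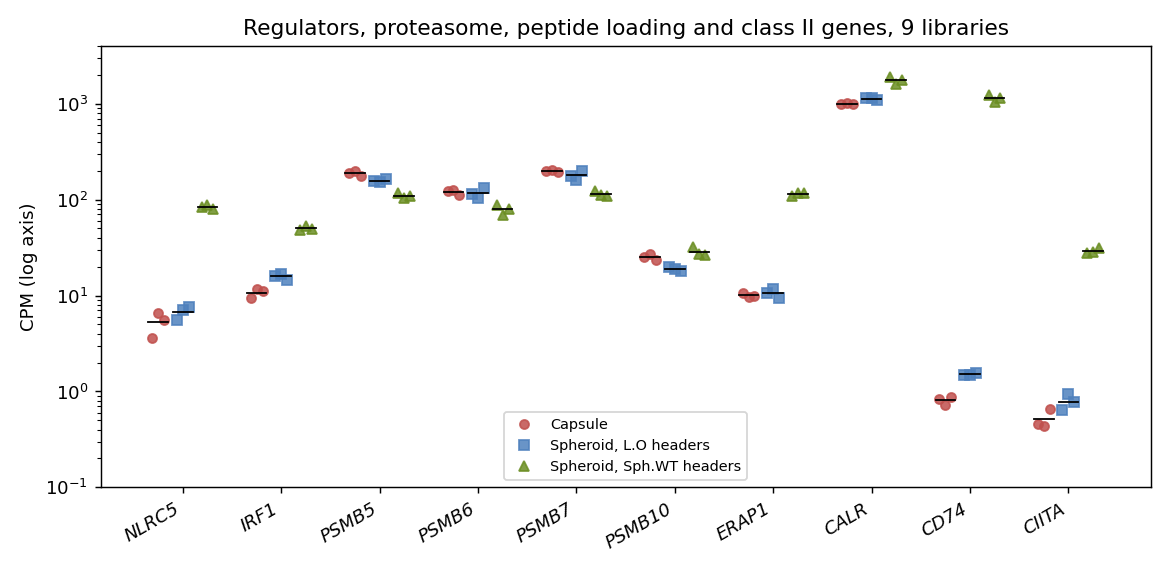
CPM on a log axis of 10 genes of the pathway lists in each library (points) with the mean of each set (bars). NLRC5, ERAP1, CD74 and CIITA are well above the other sets in Sph.WT libraries, and PSMB5, PSMB6 and PSMB7 lie lower there in CPM by library totals. With TMM scaling the fit called all 3 higher in capsules than in Sph.WT, and only PSMB7 higher in L.O than in Sph.WT.

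The genes outside these lists whose profile over the 9 libraries was most like the members' mean profile were GABARAP, VSTM2L, COL13A1, CTSF and ALDH3B1. GABARAP averaged 135 ± 3.36 CPM in the capsule, 147 ± 6.64 CPM in the L.O and 256 ± 7.82 CPM in the Sph.WT libraries, and CTSF 17.8 ± 1.12 CPM in the capsule, 26.7 ± 3.91 CPM in the L.O and 159 ± 18.0 CPM in the Sph.WT libraries. Pearson's r passed 0.95 for 2746 of 17146 genes, so this likeness is not particular to the 5. HLA-C ran against the members' mean profile at r = -0.93. The other 8 members are themselves most of that mean, so their own r says nothing further. The 9 points of each profile share libraries and depth.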

How the data were processed

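The deposited values were raw counts of reads per gene from the authors, whole numbers with no normalization; 237 rows carry no gene symbol. featureCounts, limma and the build hg38 appear in the submitters' processing notes, where neither tool has a version or a stated role. The capsule and L.O headers contain the word subread, which may name the aligner, and the Sph.WT headers do not. Whether all libraries were aligned alike cannot be told. The annotation and strand setting are not given in the sources used here. Small and large spheroids were made 1 group because earlier work had shown that the headers give no size.

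Counts were tested with edgeR 4.0.16 (R 4.3.3): TMM scaling, filterByExpr, quasi-likelihood F test, Benjamini-Hochberg adjustment over all genes tested, called at an adjusted p under 0.05. DESeq2 1.42.0, limma-voom (limma 3.58.1), other scalings, no filter, each library left out and a replicate block were alternatives. The SE is the log2 fold change divided by the root of F. The fits were tested on simulated data in which each gene, apart from those changed on purpose, had a common mean in all libraries. The simulated spheroid sets thus did not differ as the real ones do. The test cannot show how the fit of capsules against all spheroids handles that difference. CPM used library totals. Depth ranged from 13212665 to 33263076 counts, and intervals cover counting error only. No pair of libraries agreed within counting noise (at least 1203 genes differed).

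The genes, lists and tests were chosen with earlier results of these data known. Named genes are all 9 members, the 3 genes of highest mean CPM of each of 8 lists, the whole peptide loading and immunoproteasome lists, and the 5 most alike genes at 10 or more counts in at least 3 libraries; 1 gene this rule names is not reported here. NLRC5, IRF1, HFE, ULBP1, MARCHF9 and SOCS3 fall outside the rule and were picked after their values were seen. Replicate numbers did not pair the libraries.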

Additional observations from a re-analysis of the deposited data

Results flagged for a closer look

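HLA-C stood out because its CPM by library totals lay below the L.O and above the Sph.WT libraries in every capsule library. With TMM scaling the capsule and L.O libraries overlapped, and the fit did not call capsules against L.O (-0.17, adjusted p = 0.061). The difference between the sets was 1.67 on the log2 scale, L.O minus Sph.WT, with an adjusted p of 1.3e-13 in edgeR's quasi-likelihood test. The sets also differ in their cell line markers, and the part of these in the result was not tested.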

How the results depend on the processing

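For capsules against all spheroids, 390 genes were called higher and 249 lower in edgeR. Higher calls came to 99 with library totals, 1214 with DESeq2 and 0 with the replicate block, and lower calls to 2809 with DESeq2, 153 with limma-voom and 0 with the block. With only L.O as spheroids the counts were 3934 and 4036, with only Sph.WT 6977 and 6932, and with 3 levels 6600 and 6043. Leaving out 1 library gave 0 to 342 higher and 0 to 262 lower, with 0 and 0 without any 1 capsule, 342, 166 and 247 higher and 262, 121 and 162 lower without L.O 1, 2 and 3, and 91, 155 and 124 higher and 63, 85 and 83 lower without Sph.WT 1, 2 and 3. Members called lower numbered 7 with DESeq2, 2 with only L.O, 8 with only Sph.WT and 8 with 3 levels, and members called higher 1 and 1 with the last of these settings. Pathway list genes called higher were 1 with DESeq2 size factors, 0 with library totals, 4 with DESeq2, 0 with the block, 0 to 0 without 1 library, 23 with only L.O, 17 with only Sph.WT and 15 with 3 levels, and those called lower 2 with library totals, 31 with DESeq2, 0 with limma-voom, 0 with the block, 0 to 2 without 1 library, then 27, 57 and 52. With only L.O the sign turned for HLA-C (-0.17), B2M (0.019) and TAP2 (0.068).

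For capsules against L.O, library totals gave 2275 genes higher, 4 members lower and 14 pathway genes higher, and turned B2M (-0.13) and TAP2 (-0.078). These counts stand beside 36.8% of all genes lower and 14.3% higher. B2M also turned without capsule replicate 1 (-0.032) and without L.O 2 (-0.049). For L.O against Sph.WT, library totals called 25 of 83 pathway genes higher, beside 55.0% of all genes. All 117 other values of the members' differences kept direction and call.

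Replicate numbers correlated at r -0.19 to 0.06 over 9 same-numbered pairs, and 1 of 9 libraries correlated best with its own number, so the numbers were not taken to pair the samples. With the replicate block, capsules against L.O had 3510 genes higher and 3635 lower, and L.O against Sph.WT 7113 and 7237, where the block also took the call of PSMB7 away (1 constitutive subunit called without it, 0 with it). The cause of these shifts was not tested. Levels below 3 counts a library are not resolved at this depth.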

Other observations

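The genes given here were picked after their values were seen. HFE, a class I-like protein that binds the transferrin receptor and needs B2M, averaged 0.272 ± 0.0444 CPM in the capsule, 0.595 ± 0.105 CPM in the L.O and 80.4 ± 8.86 CPM in the Sph.WT libraries. ULBP1, a stress ligand of the NKG2D receptor on natural killer cells, averaged 5.83 ± 0.74 CPM in the capsule, 5.48 ± 0.557 CPM in the L.O and 0.144 ± 0.0585 CPM in the Sph.WT libraries, so it was lowest in the Sph.WT libraries. MARCHF9, a ubiquitin ligase that lowers surface class I, averaged 34.4 ± 2.71 CPM in the capsule, 55.1 ± 11.8 CPM in the L.O and 7.61 ± 0.291 CPM in the Sph.WT libraries. SOCS3, an inhibitor of JAK signalling, averaged 3.62 ± 0.652 CPM in the capsule, 6.54 ± 0.902 CPM in the L.O and 34.2 ± 4.46 CPM in the Sph.WT libraries. No explanation of these values was tested.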
